A study of Mus musculus with 8 samples.

Results

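The response of young CD8 T cells to an MC38 tumor was read from 4 Agilent one-colour arrays, of 8 in the series. MC38 is a mouse colon carcinoma line that grows in C57BL/6 mice. The arrays were chosen by their labels alone: C57BL/6 mice 2 months old, either wild type (WT) or PD-1-/- (labelled PD-1KO), and either tumor-free or sampled 9 days after the cells were inoculated. PD-1, encoded by Pdcd1, is an inhibitory receptor of activated T cells. Each of the 4 groups had 1 array, so the tumor difference was measured once in WT and once in PD-1KO mice, as 2 pairs with no replicate of any group. The same 4 groups at 17 months make up the other 4 arrays and serve only for comparison. All samples were total RNA of lymph node cells isolated with CD8a microbeads. Tumor-bearing mice gave the draining node and tumor-free mice a peripheral node, so tumor and node cannot be told apart. The labels do not say whether RNA of several mice was pooled, and which part of Pdcd1 the knockout lacks is not given.

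Resting CD8 T cells circulate through lymph nodes as small, non-dividing cells. When dendritic cells in a draining node present tumor antigen, responding clones enter the cell cycle and make granzymes, the serine proteases that kill target cells. They also gain inhibitory receptors such as PD-1 and TIM-3, and homing molecules for inflamed tissue. A CD8 bead isolate of a whole node holds responding clones diluted in resting cells, and some cells of other kinds.

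Signal per probe was taken as log2 relative to the 75th percentile of its array, called the level below, and a difference is tumor-bearing minus tumor-free. A level above 0 is brighter than that percentile, and levels of different genes are not compared, since probes differ. Between 26266 and 27986 probes were well above background on a young array, no spot was saturated, and 21561 features, 12890 of them with a gene symbol, were kept because 2 or more of the 4 young arrays measured them. The level correlated at 0.971 to 0.994 between young arrays across features, which are not independent replicates, and the number of arrays limits the precision of every value below. The isolated cells carried the label's markers: Cd8a, a chain of the CD8 coreceptor, was at 4.98 on the tumor-free WT array, 4.88 on the tumor-bearing WT array, 4.91 on the tumor-free PD-1KO array and 4.58 on the tumor-bearing PD-1KO array. Those values lie within 0.39 of each other. The 10 measured CD8 T cell markers (of 13) had a summed signal, in units of the array's 75th percentile, of 1658 without and 1693 with tumor in WT mice, and 1645 without and 1619 with tumor in PD-1KO mice. None of them was 2-fold apart in either pair.

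With tumor, 433 features were at least 2-fold higher and 90 at least 2-fold lower in both pairs. These are 2.01% and 0.417% of the features tested. The higher group included cell division genes, the granzymes Gzma, Gzmb and Gzmk, and receptors of activated and effector cells, and the lower group included mast cell proteases and lectins of the Cd209 family. Considered one at a time, the WT pair had 541 features 2-fold higher (2.51%) and 328 lower (1.52%), and the PD-1KO pair 1114 higher (5.17%) and 714 lower (3.31%). Another 21 features were 2-fold apart in opposite directions in the 2 pairs. Of the 433 higher features, 361 had the larger difference in the PD-1KO pair, with medians of 1.80 (WT) and 2.74 (PD-1KO). The median over all features was -0.01 and -0.08, and the SD over all features 0.50 and 0.70.

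**Figure D1:**
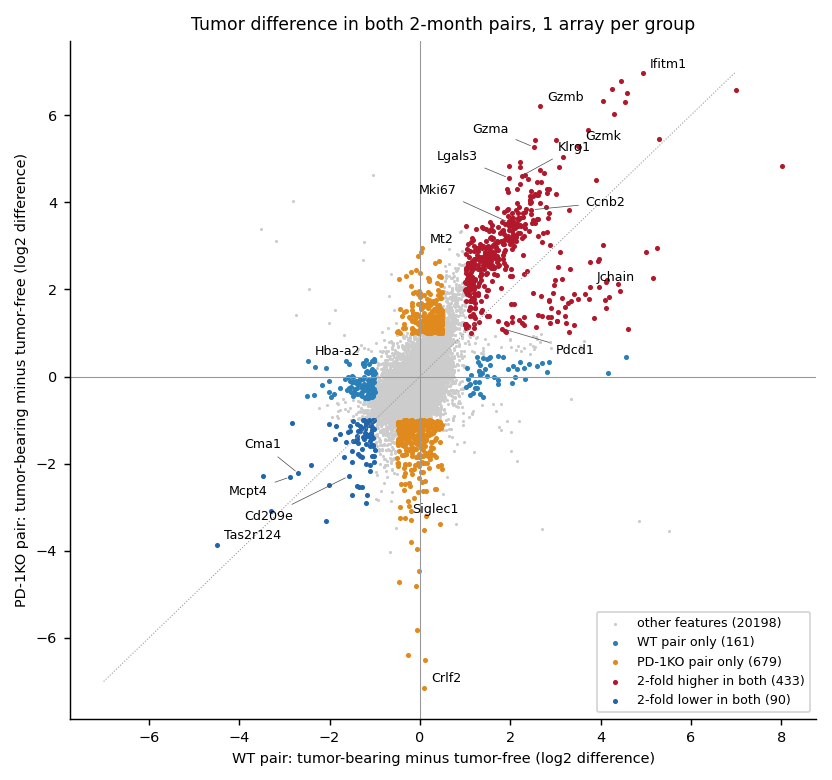
Each point is 1 of 21561 features, with the log2 difference between tumor-bearing and tumor-free arrays in the WT pair (x axis) and in the PD-1KO pair (y axis), coloured by class. Most of the 433 features 2-fold higher in both pairs lie above the dotted line of equal differences, and a separate arm with Jchain lies below it.

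The 2-fold limit is a description and not a test. Just inside it lay Fam89a (1.01 and 1.17) and Recql4 (1.01 and 2.18), and just outside it Nqo2 (0.996 and 2.05) and Ttll9 (0.992 and 1.37), as differences in the WT and PD-1KO pairs. Both groups were chosen by these 4 arrays. Where a gene in them is said below to have tumor-bearing and tumor-free arrays apart, that order largely follows from the choice. The higher and the lower group differed in how well they were measured. All 4 young arrays were well above background for 312 of the 433 higher features but for 28 of the 90 lower ones. With the dimmer array of a pair set at its detection floor where it was not well above background, 393 of the higher and 43 of the lower features were still 2-fold apart in both pairs. Under normexp, another background correction, the counts were 239 and 9, so the lower count depended more on the correction. A second probe that passed the filter existed for 83 higher genes, and for 61 of them all other probes were 2-fold higher in both pairs as well. For lower genes it existed for 4, and for 2 of them all other probes were 2-fold lower in both pairs.

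In limma's linear model over all 8 arrays, in which departures from additivity set the error, 2 features passed an adjusted p of 0.05 (Benjamini-Hochberg) for the tumor difference in young mice, which is 0.00928% of those tested. These are a gene with a clone name, higher with tumor, and a predicted gene, lower with tumor, and each was not well above background on the dim side of either pair. Of the 433 and 90 features, 408 and 82 had an unadjusted p under 0.05, against 3158 of all 21561. Among the 433 and 90, 237 and 25 had an adjusted p under 0.1. They were chosen by the same 2 differences that this estimate averages, so these counts are no separate support for them. No gene named below passed this test at 0.05, and each is described by its values in 2 pairs that share no array. The count of calls moved from 0 to 364 when 1 array at a time was left out, highest without the tumor-bearing WT array.

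By the mean of the 2 pairs, the largest difference among named genes was in Ifitm1, an interferon-induced membrane protein. Its level was -3.21 on the tumor-free WT array, 1.72 on the tumor-bearing WT array, -3.55 on the tumor-free PD-1KO array and 3.41 on the tumor-bearing PD-1KO array. Both tumor-bearing arrays were far above both tumor-free ones, by 30.6-fold in the WT pair and 124-fold in the PD-1KO pair (mean difference 5.95 ± 0.97 (SE), adjusted p = 0.0886, limma over all features).

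Granzymes are proteases of the cytotoxic granule, and 3 of them were 2-fold higher in both pairs. Gzmb stood at 0.00 without and 2.65 with tumor in WT, and -0.53 without and 5.66 with tumor in PD-1KO mice. Gzmk stood at -2.97 without and 0.53 with tumor in WT, and -1.95 without and 3.35 with tumor in PD-1KO mice. Gzma stood at 3.04 without and 5.56 with tumor in WT, and 2.15 without and 7.42 with tumor in PD-1KO mice. For all 3 genes both tumor-bearing arrays were above both tumor-free arrays, and the PD-1KO array was the highest. The folds were 6.31-fold in the WT pair and 73.4-fold in the PD-1KO pair for Gzmb (mean difference 4.43 ± 0.79 (SE), adjusted p = 0.104), 11.3-fold in the WT pair and 39.2-fold in the PD-1KO pair for Gzmk (mean difference 4.39 ± 0.73 (SE), adjusted p = 0.0904) and 5.75-fold in the WT pair and 38.5-fold in the PD-1KO pair for Gzma (mean difference 3.90 ± 1.01 (SE), adjusted p = 0.195). Gzma and Gzmk lie beside each other on chromosome 13, with 1 other gene of the RefSeq table between them.

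**Figure D2:**
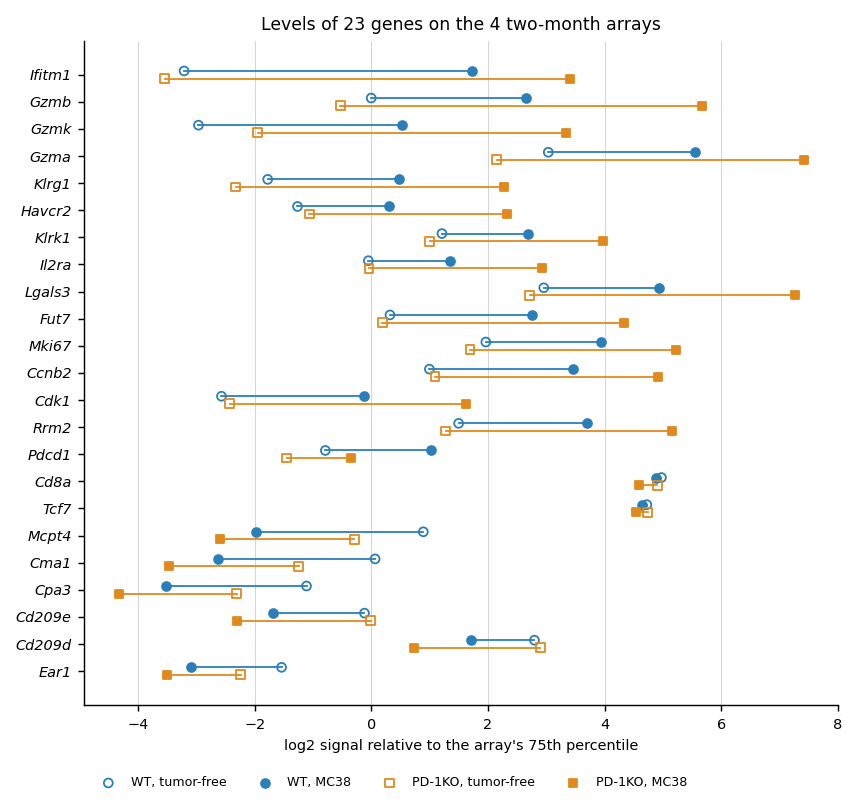
Levels (log2 signal relative to the array's 75th percentile) of 23 genes on the 4 young arrays, where open symbols are tumor-free, filled symbols tumor-bearing, circles WT and squares PD-1KO, and each symbol is 1 array. Granzymes, receptors and cell cycle genes move to the right with tumor, most of them furthest in PD-1KO mice, Cd8a and Tcf7 stay nearly in place, and mast cell proteases, Cd209 lectins and Ear1 move to the left.

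Several of the largest differences belonged to genes that no tumor-free young array measured above background. They included Popdc2, a membrane protein best known from heart and muscle, and Galnt3, which starts O-linked glycosylation. Popdc2 was at least 5.48-fold (WT pair) and at least 26.8-fold (PD-1KO pair) higher and Galnt3 at least 4.57-fold (WT pair) and at least 18.3-fold (PD-1KO pair). Stmn2, a microtubule regulator of neurons, was at least 4.09-fold (WT pair) and at least 19.6-fold (PD-1KO pair) higher, and Cphx1, a homeobox gene, at least 5.39-fold (WT pair) and at least 18.9-fold (PD-1KO pair). The agouti gene a, which encodes a ligand of melanocortin receptors, was at least 2.82-fold (WT pair) and at least 10.6-fold (PD-1KO pair) higher, and Mmp10, a matrix metalloproteinase, at least 3.29-fold (WT pair) and at least 7.30-fold (PD-1KO pair). Maats1, linked to cilia, was at least 1.79-fold (WT pair) and at least 10.2-fold (PD-1KO pair) higher. Fxyd4, a regulator of the sodium pump, was at least 4.61-fold (WT pair) and at least 11.2-fold (PD-1KO pair) higher. Lrr1, a substrate receptor of ubiquitin ligases, was at least 7.38-fold (WT pair) and at least 16.04-fold (PD-1KO pair) higher. Esm1, a secreted proteoglycan, was measured on all 4 arrays at -3.59 and -0.56 in WT and -3.66 and 1.76 in PD-1KO mice (tumor-free, then tumor-bearing). The linker histone H1f5 was also measured on all 4, at 1.41 and 4.26 in WT and 1.47 and 5.76 in PD-1KO mice (tumor-free, then tumor-bearing). In each of these genes both tumor-bearing arrays were above both tumor-free arrays. Their choice as the largest positive differences in both pairs largely set that order. Those not measured on a tumor-free array passed the filter through the tumor-bearing arrays alone. The PD-1KO tumor-bearing array was the highest in each. The spots of Galnt3, Cphx1, Fxyd4 and H1f5 lie within 20 rows of an end of the array, a zone taken up below. Of the other probes for a, none was well above background on more than 1 young array, and that for Maats1 on none.

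Cell division genes were higher as lists. Of 44 measured mitosis genes (45 listed), 39 were 2-fold higher in both pairs, 0 were 2-fold lower, and 44 were above 0 in both. The median difference of the list was 1.98 in the WT pair and 3.31 in the PD-1KO pair, against -0.01 and -0.08 over all features. Cyclins, CDKs and E2F factors had 16 of 28 2-fold higher in both, with medians of 1.18 and 2.49. DNA replication genes had 16 of 35, with medians of 0.89 and 1.98, and replication-dependent histones 11 of 13, with medians of 1.21 and 2.50. The 2-fold background for both pairs is 2.01%. In the PD-1KO pair the difference was the larger in 44 of 44 mitosis genes, 25 of 28 cyclin and CDK genes, 34 of 35 replication genes and 13 of 13 histones. Differences over all features also spread more widely in the PD-1KO pair (SD 0.70) than in the WT pair (SD 0.50). Genes of a list can move together on the same arrays, so they are not separate measurements of a genotype difference.

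The window around the start of 3 of these genes is shown because their values moved together and because their promoters carry the letters searched for: the CCAAT box (CCAAT, bound by NF-Y) and the cell cycle homology region or CHR (TTTGAA), elements known from genes of G2 and mitosis. Windows are RefSeq promoters on GRCm38.p6, from 250 bases before to 50 after the annotated start, printed 5′ to 3′ on the gene's strand. Capitals mark the CCAAT box (CCAAT, or on the other strand ATTGG), the CHR (TTTGAA, or on the other strand TTCAAA) and, in Cdk1, the E2F word TTTCGCGC. They are Ccnb2 (chr9:70421505-70421804, minus strand), Plk1 (chr7:122159185-122159484, plus strand) and Cdk1 (chr10:69352863-69353162, minus strand).
Ccnb2: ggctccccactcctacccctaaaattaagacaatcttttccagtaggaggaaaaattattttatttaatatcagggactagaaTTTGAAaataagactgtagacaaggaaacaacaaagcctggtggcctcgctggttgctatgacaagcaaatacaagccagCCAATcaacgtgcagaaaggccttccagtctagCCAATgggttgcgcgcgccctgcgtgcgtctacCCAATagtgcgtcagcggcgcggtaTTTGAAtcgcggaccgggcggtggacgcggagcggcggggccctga
Plk1: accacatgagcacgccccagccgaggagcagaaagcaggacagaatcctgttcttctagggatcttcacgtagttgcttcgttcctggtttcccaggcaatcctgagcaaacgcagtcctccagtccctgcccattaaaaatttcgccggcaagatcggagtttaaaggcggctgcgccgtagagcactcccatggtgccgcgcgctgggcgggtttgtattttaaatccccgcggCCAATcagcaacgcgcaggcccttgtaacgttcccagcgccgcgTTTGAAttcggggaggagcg
Cdk1: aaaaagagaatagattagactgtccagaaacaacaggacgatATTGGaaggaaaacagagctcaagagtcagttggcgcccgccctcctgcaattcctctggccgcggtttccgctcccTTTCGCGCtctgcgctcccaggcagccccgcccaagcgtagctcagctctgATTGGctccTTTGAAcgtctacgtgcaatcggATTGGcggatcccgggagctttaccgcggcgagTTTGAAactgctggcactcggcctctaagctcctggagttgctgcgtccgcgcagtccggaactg

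A window was in the table for 245 of the 433 features higher in both pairs, many of the others having no symbol. Both CCAAT and TTTGAA, on either strand, occurred in 64.6% of 48 windows of the mitosis and cyclin genes that were 2-fold higher in both pairs, in 25.8% of 279 windows of all genes 2-fold higher in both, in 5.21% of 13024 windows of measured genes and in 6.95% of all 32851 windows. TTTGAA alone was in 72.9%, 35.5%, 12.9% and 17.9% of these windows, and CCAAT in 79.2%, 59.9%, 37.8% and 37.4%. An E2F word (TTTGGCGC or else TTTCGCGC or else TTCGCGCC or else TTTCCCGC, which can overlap one another, on either strand) was in 33.3% of the 15 windows of replication genes 2-fold higher in both, 10.4% of the mitosis and cyclin windows, 3.98% of windows of measured genes and 2.21% of all windows. For immune signaling, shares in the 279 windows are given with those of measured genes and of all windows, in that order, in parentheses: the ISRE word GAAANNGAA of interferon response was in 8.6% (7.45% and 8.56%), the GAS word TTCNNNGAA of STAT factors in 6.45% (7.18% and 8.3%), the NFAT word GGAAAA in 22.6% (20.7% and 23.4%), the AP-1 word TGANTCA in 6.81% (5.29% and 7.81%) and the T-box word TCACACCT in 1.08% (0.967% and 1.28%). These are letter matches and a description, and no test was made of them.

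The 3 genes printed have central roles in entry into mitosis. Ccnb2, a B-type cyclin, was at 1.00 without and 3.46 with tumor in WT, and 1.09 without and 4.92 with tumor in PD-1KO mice. Cdk1, the kinase that B-type cyclins activate, was at -2.57 without and -0.13 with tumor in WT, and -2.43 without and 1.62 with tumor in PD-1KO mice. Plk1, a kinase of spindle assembly, was at 0.93 without and 3.21 with tumor in WT, and 0.95 without and 4.61 with tumor in PD-1KO mice. All 3 had both tumor-bearing arrays above both tumor-free arrays, and differences of 2.47 and 3.83 for Ccnb2, 2.44 and 4.05 for Cdk1 and 2.27 and 3.65 for Plk1 in the WT and PD-1KO pairs. Ccnb1 (2.67 and 3.99) and Ccna2 (2.59 and 4.17) behaved alike. The proliferation antigen Mki67 had differences of 1.97 and 3.54, the kinesin Kif4 2.44 and 3.97, Aurora kinase B, Aurkb, 2.61 and 3.62, the ubiquitin-conjugating enzyme Ube2c 2.35 and 3.85 and survivin, Birc5, 2.29 and 3.75. In mitosis, Kif23 had the smallest mean difference of the list, with 0.26 and 0.46.

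At the transition into S phase, Ccne2, an E-type cyclin, had the larger difference in the WT pair, 3.98 in the WT pair and 2.69 in the PD-1KO pair. It was not well above background on either tumor-free array, its spot lies near the array's end, and the difference was at least 4.99-fold and at least 1.36-fold. The repressors E2f7 (2.22 and 4.42, at least 19.51-fold in the PD-1KO pair) and E2f8 (2.07 and 3.58) and the activator E2f2 (1.51 and 2.99) were 2-fold higher in both pairs, whereas E2f1 had 0.85 and 1.97. The D-type cyclins differed little: Ccnd2 had -0.10 and -0.24 and Ccnd3 0.20 and 0.41. Cdkn1b, an inhibitor of CDKs in resting cells, had -0.12 and -0.26. Foxm1 (1.21 and 2.88) and Mybl2 (1.87 and 3.78), which drive mitotic genes, were higher in both.

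Among replication genes, Clspn, a checkpoint adaptor at the fork, had differences of 2.33 and 4.63, at least 4.42-fold in the WT pair and at least 10.2-fold in the PD-1KO pair, and was not well above background on the tumor-free arrays. Rrm2, the regulated subunit of ribonucleotide reductase, was at 1.497 without and 3.70 with tumor in WT, and 1.27 without and 5.16 with tumor in PD-1KO mice. That is a difference of 2.20 in the WT pair and 3.88 in the PD-1KO pair, with no overlap between tumor-bearing and tumor-free arrays. Mcm10 (2.04 and 3.64), thymidine kinase Tk1 (2.06 and 3.44) and Cdc45 (2.14 and 3.10) were also 2-fold higher in both. The MCM helicase subunits had smaller differences, for example 0.48 and 1.23 for Mcm2 and 0.89 and 1.98 for Mcm5. Pcna, the sliding clamp, had 0.46 and 1.07. After H1f5, the histone H2ac4 had the largest difference, 2.18 and 3.602.

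**Figure D3:**
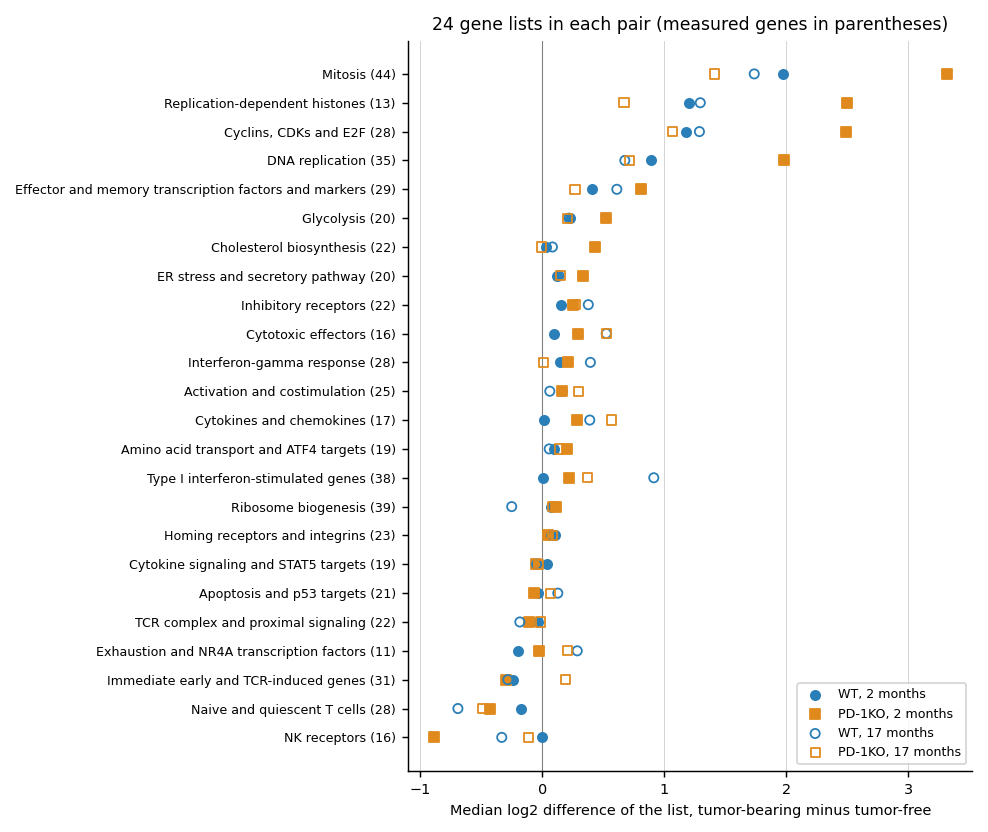
Median log2 difference (tumor-bearing minus tumor-free, x axis) of 24 gene lists in each of 4 pairs, with the number of measured genes in parentheses; filled symbols are the young pairs, open symbols the 17-month pairs, circles WT and squares PD-1KO, 1 array per group. In the young pairs the 4 cell division lists have the highest medians, each higher in the PD-1KO pair, and at 17 months the type I interferon list in the WT pair (0.91) lies to the right of DNA replication (0.68).

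Beyond the granzymes, the cytotoxic list moved little. Of 16 measured members, 3 were 2-fold higher in both pairs (2.01% of all features) and 0 lower. List medians were 0.10 and 0.29 in the WT and PD-1KO pairs. Perforin, Prf1, which opens the target membrane, had -0.05 and -0.43, the granule protein Nkg7 0.06 and 0.41 and the death ligand Fasl -0.09 and 0.75. The granzyme inhibitors Serpinb6b (0.77 and 1.75) and Serpinb9 (0.46 and 1.81) were higher in the PD-1KO pair than in the WT pair. Gzmc was 2-fold lower in the WT pair alone (-1.06 and 0.17). No probe for Gzmd, Gzme, Gzmf or Gzmg was well above background on any young array. The Gzmb window, shown because Gzmb had the largest difference of the list in the PD-1KO pair, holds 1 AP-1 word, TGAGTCA, in capitals, and no GGAAAA on either strand. It is Gzmb (chr14:56262285-56262584, minus strand).
Gzmb: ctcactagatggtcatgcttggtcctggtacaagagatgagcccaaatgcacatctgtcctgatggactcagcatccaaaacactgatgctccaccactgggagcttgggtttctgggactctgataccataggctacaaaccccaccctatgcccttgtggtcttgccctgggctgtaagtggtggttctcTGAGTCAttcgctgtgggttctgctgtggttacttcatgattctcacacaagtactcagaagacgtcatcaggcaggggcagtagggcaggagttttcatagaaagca

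Receptors that restrain T cells were 2-fold higher in both pairs for 4 of 22 listed genes, against 2.01% of all features. The list medians were 0.15 and 0.25. Klrg1, a receptor of short-lived effector cells, was at -1.78 without and 0.47 with tumor in WT, and -2.32 without and 2.28 with tumor in PD-1KO mice. Havcr2, which encodes TIM-3, was at -1.27 without and 0.31 with tumor in WT, and -1.06 without and 2.33 with tumor in PD-1KO mice. Klrc1, which encodes NKG2A, had differences of 1.11 and 2.88, at least 2.16-fold in the WT pair and was not well above background on the tumor-free WT array. For Klrg1 and Havcr2 both tumor-bearing arrays were above both tumor-free arrays, and the PD-1KO pair had the larger difference (2.25 and 4.60, and 1.58 and 3.395). Lag3 missed the limit in the WT pair (0.96 and 1.42), Tigit was 2-fold higher in the PD-1KO pair alone (0.00 and 1.21), and Ctla4 had 0.05 and 0.20.

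Pdcd1 itself was at -0.79 on the tumor-free WT array, 1.03 on the tumor-bearing WT array, -1.45 on the tumor-free PD-1KO array and -0.35 on the tumor-bearing PD-1KO array. Each tumor-bearing array was above its tumor-free partner, and the highest value was in tumor-bearing WT mice, with differences of 1.82 in the WT pair and 1.102 in the PD-1KO pair. A probe signal remained in mice labelled PD-1KO, and whether the probe lies in the deleted part is not given, so the probe checks nothing about the genotype. Its spot lies in row 379 of 384, in the zone taken up below, and under normexp the PD-1KO pair was under 2-fold. The transcription factors of exhaustion had 0 of 11 members 2-fold apart in both pairs, with Tox at -0.34 and -0.34, Nr4a1 at -0.34 and -0.54 and Batf at 0.46 and 1.09.

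Effector and memory genes had 6 of 29 members 2-fold higher in both pairs (2.01% of all features), 0 lower, and medians of 0.40 and 0.81. Most of the 6 encode small calcium, membrane or sugar binding proteins. The galectin Lgals3 was at 2.96 without and 4.93 with tumor in WT, and 2.71 without and 7.27 with tumor in PD-1KO mice. Lgals1 had 1.73 and 3.43, S100a6 1.32 and 3.04, Anxa2 1.42 and 2.77, S100a4 1.07 and 2.21 and the integrin chain Itgb1 1.03 and 1.11. Under quantile normalization S100a4 and Itgb1 were just under 2-fold in a pair. Among transcription factors of effector cells, Tbx21, which encodes T-bet, had 0.70 and 1.78, Prdm1, which encodes Blimp-1, 0.31 and 1.55 and Bhlhe40 0.39 and 1.37. Eomes had 0.40 and -0.06 and Zeb2 -0.64 and -0.44.

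Of the activation list, 2 receptors passed 2-fold in both pairs among 25 genes measured, against 2.01% of all features. Il2ra, the high-affinity chain of the interleukin-2 receptor, was at -0.05 without and 1.35 with tumor in WT, and -0.04 without and 2.93 with tumor in PD-1KO mice. Klrk1, which encodes NKG2D, was at 1.21 without and 2.69 with tumor in WT, and 1.00 without and 3.97 with tumor in PD-1KO mice. In both genes the tumor-free arrays of the 2 genotypes were close and the tumor-bearing PD-1KO array was the highest. The early activation marker Cd69 was lower (-0.54 and -0.58), and Cd44 differed little (0.19 and 0.09). Of the homing genes, Fut7 (2.44 and 4.14) and Gcnt1 (1.33 and 2.47), enzymes that build selectin ligands, were 2-fold higher in both pairs. Of 23 homing genes, 2 were, against 2.01% of all features. The chemokine receptors Ccr2 (0.66 and 2.08), Ccr4 (0.70 and 1.68) and Cxcr3 (0.68 and 1.38) were under 2-fold in the WT pair.

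Among genes of naive and quiescent T cells, none of 28 was 2-fold apart in both pairs, 22 were below 0 in both and 0 above 0 in both, with medians of -0.17 and -0.43. Of all features, 40.8% were below 0 in both pairs and 31.2% above. The factor Tcf7, which keeps T cells naive or memory-like, was at 4.73 without and 4.64 with tumor in WT, and 4.74 without and 4.54 with tumor in PD-1KO mice. Both tumor-bearing arrays were slightly below both tumor-free arrays, with differences of -0.08 and -0.20. The largest negative means were in Bach2 (-0.40 and -0.73), Il6st (-0.38 and -0.74), Igfbp4 (-0.36 and -0.75) and Ccr7 (-0.45 and -0.52). In bulk RNA, fewer cells of a type and less RNA per cell cannot be told apart.

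Signaling programs showed few differences at this time. Type I interferon-stimulated genes had 0 of 38 members 2-fold apart in both pairs and medians of 0.01 and 0.22. Isg15 had -0.15 and 0.50, Ifit3 -0.09 and 0.64 and Irf7 0.09 and 0.14. Interferon-gamma response genes had 0 of 28 and medians of 0.14 and 0.21, with Gbp3 2-fold higher in the PD-1KO pair alone (0.48 and 1.19). Ifng itself had 0.69 and 1.14. The cytokine list had 1 of 17, Il10, with 1.80 in the PD-1KO pair. Il10 was not well above background on either WT array, so no fold is given there. The chemokine Ccl3 had 0.64 and 1.58.

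Immediate early and T cell receptor (TCR) induced genes had 0 of 31 2-fold apart in both pairs, 22 below 0 in both, against 40.8% of all features, and medians of -0.24 and -0.30. Fosl2 had the lowest mean (-0.86 and -1.15), Egr3 had -0.46 and -0.63, Nr4a2 -0.52 and -0.47 and Junb -0.50 and -0.45. The TCR complex and its proximal kinases had 0 of 22 and medians of -0.04 and -0.11, for example Cd3e at -0.14 and -0.20 and Zap70 at 0.09 and -0.09. Genes of cytokine signaling and STAT5 (0 of 19, medians 0.04 and -0.05), ribosome biogenesis (0 of 39, 0.07 and 0.11) and secretory stress (0 of 20, 0.12 and 0.33) also had none. For the cytokine signaling, homing and ribosome lists, the median over genes of the mean of both pairs is slightly above 0 and slightly below it under quantile normalization and without scaling.

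Metabolic genes differed in single enzymes. Asns, asparagine synthetase, was at -2.25 without and -0.31 with tumor in WT, and -2.16 without and 1.53 with tumor in PD-1KO mice, and was the only one of 19 amino acid and ATF4 genes 2-fold higher in both (1.94 and 3.69). Atf4 had -0.23 and -0.31. Psat1, of serine synthesis, had 0.80 and 1.69. Glycolysis had 0 of 20 2-fold apart in both and 14 above 0 in both, against 31.2% of all features above 0. The list medians were 0.23 and 0.53. The lactate exporter Slc16a3 had 0.83 and 2.81, Tpi1 0.59 and 1.62 and Ldha 0.62 and 0.65. Of 21 apoptosis and p53 genes, 1 was 2-fold higher in both, with list medians of -0.03 and -0.07.

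Several of the genes that were lower with tumor are known from cells other than CD8 T cells. Mcpt4, a chymase of mast cells, was at 0.89 on the tumor-free WT array, -1.97 on the tumor-bearing WT array, -0.29 on the tumor-free PD-1KO array and -2.59 on the tumor-bearing PD-1KO array. Cma1, another mast cell chymase, was at 0.06 without and -2.63 with tumor in WT, and -1.25 without and -3.47 with tumor in PD-1KO mice. Cpa3, the mast cell carboxypeptidase, was at -1.11 without and -3.51 with tumor in WT, and -2.31 without and -4.34 with tumor in PD-1KO mice, the last not well above background. For all 3 both tumor-bearing arrays were below both tumor-free arrays, by 7.28-fold in the WT pair and 4.93-fold in the PD-1KO pair for Mcpt4 (mean difference -2.58 ± 0.28 (SE), adjusted p = 0.0639) and 6.47-fold in the WT pair and 4.66-fold in the PD-1KO pair for Cma1 (mean difference -2.46 ± 0.25 (SE), adjusted p = 0.0639). The PD-1KO arrays were lower than their WT counterparts in each. Tpsb2, a tryptase, was lower in the WT pair alone (-2.02 and -0.10, at least 4.04-fold in the WT pair), and Kit had 0.01 and -0.34. Of the 9 mast cell, basophil and eosinophil markers only 2 passed the filter, Cpa3 and Kit, and they summed to 0.885 without and 0.513 with tumor in WT mice, and 0.584 without and 0.352 with tumor in PD-1KO mice, while Mcpt8, Ms4a2, Prg2, Epx and Gata2 were above background on no young array. Mcpt4 and Cma1 lie on chromosome 14 with 6 table genes between them, in the cluster that also holds Gzmb. Between Mcpt4 and Gzmb, which had the opposite direction, lie 17 table genes.

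Lectins of the Cd209 family, relatives of DC-SIGN found on dendritic cells and macrophages, were lower. Cd209e was at -0.12 without and -1.70 with tumor in WT, and -0.01 without and -2.30 with tumor in PD-1KO mice. Cd209d was at 2.80 without and 1.70 with tumor in WT, and 2.90 without and 0.73 with tumor in PD-1KO mice. Cd209a had -1.20 and -1.998 and Cd209f -1.104 and -2.03, at least 2.99-fold in the PD-1KO pair. Both tumor-bearing arrays were below both tumor-free arrays for Cd209e, Cd209d and Cd209a, and the tumor-bearing PD-1KO array was the lowest. A second probe of Cd209d had -1.05 and -2.28, and one of Cd209a -1.09 and -1.71. The eosinophil-type ribonucleases Ear1 (-1.55 and -1.26), Ear2 (-1.24 and -1.39) and Ear10 (-1.08 and -1.30, at least 2.45-fold in the PD-1KO pair), named after their values were seen, were lower too, and their probes may read near-identical copies. Ccl22, a chemokine of dendritic cells, had -1.36 and -1.24, at least 1.37-fold in the WT pair and at least 1.57-fold in the PD-1KO pair, and Cbr2, a carbonyl reductase, -1.34 and -2.54. A second probe of Cbr2 had -0.79 and -1.71, under 2-fold in the WT pair.

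Other lower genes had no signal above background on either tumor-bearing array. Tas2r124, a bitter taste receptor gene, was at least 5.24-fold (WT pair) and at least 3.92-fold (PD-1KO pair) lower, and Rgs17, a regulator of G protein signaling, at least 2.59-fold (WT pair) and at least 1.31-fold (PD-1KO pair). The 2 other probes of Rgs17 were above background on no young array. Kcnj16, a potassium channel, was at least 1.74-fold (WT pair) and at least 1.34-fold (PD-1KO pair) lower, Il22ra1, a subunit of the interleukin-22 receptor, at least 1.35-fold (WT pair) and at least 1.70-fold (PD-1KO pair), and Tenm4, a teneurin, at least 1.52-fold (WT pair) and at least 1.84-fold (PD-1KO pair). Pir, an iron-binding nuclear protein, was at least 1.54-fold (WT pair) and at least 2.70-fold (PD-1KO pair) lower, and Bpifb2, of a lipid-binding family, at least 3.01-fold (WT pair) and at least 2.12-fold (PD-1KO pair). Under normexp, Mcpt4, Cma1, Cd209d, Cd209e, Cbr2 and Tas2r124 were still 2-fold lower in both pairs, while Cpa3, Cd209a, Cd209f, Ccl22, Ear1, Ear2, Ear10 and the 6 other genes of this paragraph were not, all with the same sign.

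Marker lists of other cells were summed on each array. Macrophage and monocyte markers had 16 of 19 below 0 in both pairs, against 40.8% of all features, none 2-fold in both, and medians of -0.54 and -1.14. Their summed signal was 127 without and 104 with tumor in WT mice, and 112 without and 90.2 with tumor in PD-1KO mice. Dendritic cell markers had 13 of 18 below 0 in both and 2 that were 2-fold lower in both (0.417% of all features), Cd209a and Ccl22. The list's summed signals were 342 without and 299 with tumor in WT mice, and 337 without and 254 with tumor in PD-1KO mice. Siglec1, a lectin of node macrophages, had -0.32 and -3.25, at least 2.21-fold in the PD-1KO pair, and the complement genes C1qa and C1qc -0.51 and -1.27 and -0.78 and -1.44. B cell markers had no member 2-fold apart in both and summed to 49.3 without and 51.6 with tumor in WT mice, and 47.4 without and 39.1 with tumor in PD-1KO mice, and NK cell and innate lymphoid markers to 158 without and 171 with tumor in WT mice, and 153 without and 146 with tumor in PD-1KO mice. The epithelial and carcinoma markers Krt8, Krt19, Krt7, Krt20 and Cldn3 were above background on no young array and Cldn4 on 1. Of the 3 that passed the filter, Epcam had -0.27 and -0.07, Krt18 0.78 and 2.50 and Cdh1 -0.39 and -1.57, and they summed to 0.474 without and 0.451 with tumor in WT mice, and 0.653 without and 0.675 with tumor in PD-1KO mice. The part of these cells in the differences above was not tested.

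Plasma cell genes were higher. Jchain, the joining chain of secreted antibody, was at -0.83 without and 2.94 with tumor in WT, and -0.16 without and 1.90 with tumor in PD-1KO mice. Mzb1, a chaperone of plasma cells, had 3.06 and 1.47, and Derl3, of endoplasmic reticulum degradation, 2.05 and 1.24. These 3 of 6 measured members were 2-fold higher in both pairs, against 2.01% of all features. The summed signal of the list was 22.0 without and 34.5 with tumor in WT mice, and 20.9 without and 30.6 with tumor in PD-1KO mice. In all 3 the WT pair had the larger difference, unlike most higher features. Of the 72 features with the larger difference in the WT pair, 57 had no symbol, 51 of them bearing an Ensembl transcript identifier that the tables used here do not pair with a gene. Of the 361 with the larger difference in the PD-1KO pair, 59 had no symbol. Those 57 features had medians of 3.21 and 1.68 in the young pairs, chosen for that order, and of -0.84 and 1.097 in the 17-month pairs, which the choice did not use.

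Genes apart in 1 genotype were taken as at least 2-fold in that pair and under 0.5 (log2) in the other. In the WT pair alone, 48 features were higher (0.223%) and 113 lower (0.524%). In the PD-1KO pair alone, 297 were higher (1.38%) and 382 lower (1.77%). The balance of higher and lower depended on the processing. With normexp it was 37 higher and 10 lower in the WT pair alone and 209 and 103 in the PD-1KO pair alone, and for the PD-1KO pair alone it was 228 and 154 in the authors' table and 263 and 199 with all 4 young arrays well above background. At a fold of 3 it was 20 and 15 in the WT pair alone. The difference between the pairs itself was tested with limma's genotype by tumor interaction, and 0 of the 21561 features passed (0.0%), 502 having an unadjusted p under 0.05 and the smallest adjusted p being 0.203. So the genes below were apart in 1 pair and were not shown to differ between genotypes.

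In the PD-1KO pair alone, Mt2, a metallothionein, had the largest positive difference, at 1.87 without and 1.92 with tumor in WT, and 1.79 without and 4.74 with tumor in PD-1KO mice. Anxa1, an annexin of effector cells, was at -0.16 without and 0.28 with tumor in WT, and -0.19 without and 2.12 with tumor in PD-1KO mice, and its second probe had 0.37 and 2.38. In both genes the tumor-bearing PD-1KO array alone was high. Csprs (0.01 and 2.38), the receptor gene Gpr25 (-0.30 and 2.31), Plcd3, a phospholipase C (0.34 and 2.61, at least 4.47-fold in the PD-1KO pair), and Hrc, a calcium-binding protein (-0.04 and 2.76, at least 2.96-fold in the PD-1KO pair), were the others of the 6 largest. For Plcd3 and Hrc it was the tumor-free PD-1KO array that stood low, not well above background. Effector genes in this class included Cx3cr1, the fractalkine receptor (0.46 and 2.29), Prdm1, Il12rb1 (0.35 and 1.503), Bhlhe40 and the serpin Serpinb9. Of 22 cholesterol synthesis genes 5 were in it, against 1.38% of all features. Among them were Idi1 (0.32 and 1.30), Sqle (0.00 and 1.27), Cyp51 (0.28 and 1.14) and Fdps (0.41 and 1.05). That list had medians of 0.03 and 0.43.

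Receptors of the natural killer gene complex on chromosome 6 lie in neighbouring groups. Klrk1 and Klrc3, which adjoin in the RefSeq table, and Klrc1, with 1 gene between it and Klrc3, were 2-fold higher in both pairs (Klrc3 1.61 and 3.01). Klrd1, next to Klrk1, had 0.33 and -0.11. Between Klrc1 and the Ly49 gene Klra5 lie 8 table genes. The Ly49 genes were lower in the PD-1KO pair alone for 5 of 7 measured members, against 1.77% of all features: Klra4 (-0.06 and -1.52), Klra5 (0.43 and -1.20), Klra7 (0.21 and -1.70), Klra8 (-0.12 and -1.04) and Klra9 (-0.04 and -1.21). Klra1 (-0.46 and -0.54) and Klra6 (0.54 and -0.56) were not in that class. Klra7 was at 2.64 without and 2.86 with tumor in WT, and 3.46 without and 1.76 with tumor in PD-1KO mice. The tumor-bearing PD-1KO array was the lowest of the 4 for Klra7. Ly49 genes are close relatives, and probes of one may read another. In the 17-month PD-1KO pair the 5 genes had differences from -0.32 to 0.41.

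The largest differences of the PD-1KO pair alone were negative and went with the place of the spot on the array. Crlf2, a cytokine receptor subunit, was at 5.53 on the tumor-free WT array, 5.61 on the tumor-bearing WT array, 5.57 on the tumor-free PD-1KO array and -1.58 on the tumor-bearing PD-1KO array. Plekha6 had -0.25 and -6.38, at least 21.6-fold in the PD-1KO pair, the repressor E2f4 -0.05 and -5.82, at least 13.97-fold in the PD-1KO pair and Tspyl2 -0.20 and -3.81. The spots of these 4 lie in the last 4 rows of the array's 384. A second probe elsewhere gave 0.08 and -0.02 for Crlf2. Of 51 placed features 4-fold or more lower in the PD-1KO pair alone, 35 (68.6%) lie in the outermost 20 rows at either end, against 10.2% of all placed features. For all 381 placed features lower in that pair alone the share was 24.9%, for those higher in that pair alone 13.6%, for those higher in both pairs 11.1% and for those lower in both 18.9%. Camk2a, a calcium-dependent kinase and also among the 6 largest, lies outside that zone, and there the tumor-free PD-1KO array alone stood high, at 1.101, the other 3 being between -3.35 and -3.06.

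**Figure D4:**
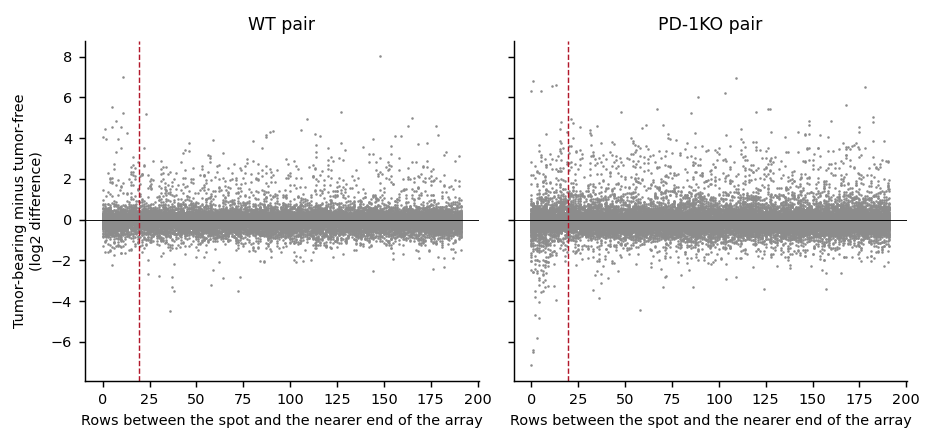
Log2 difference (tumor-bearing minus tumor-free, y axis) of each feature against the number of rows between its spot and the nearer end of the array (x axis), in the WT pair (left) and the PD-1KO pair (right); the dashed line bounds the outermost 20 rows. Of the 8 features at -4 or below in the PD-1KO pair, 7 lie left of the line, against 0 of 1 in the WT pair.

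The spots of Il12rb1, Klra9, Gbp3, Csprs, Siglec1, Gcnt1, Ube2c, Cdk15 and Cd209a lie in those rows too. Without probes of those rows, 550 features were apart in the PD-1KO pair alone, against 679 with them, and 392 and 74 were 2-fold higher and lower in both pairs. Negative differences of the PD-1KO pair outside those rows included Siah3 (0.14 and -2.62, at least 1.72-fold in the PD-1KO pair), Fbxw13 (0.11 and -2.39, at least 1.09-fold in the PD-1KO pair) and Gjc3 (-0.20 and -2.15), named after their values were seen. The zone counts rows alone, and distance from the sides of the array was not examined. By column, Siah3 lies at 164 and Gjc3 at 2, and Tas2r124 and Rgs17, named above, at 163. Siah3 and Fbxw13 were not well above background on the tumor-bearing PD-1KO array.

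In the WT pair alone, the largest positive difference among genes with a name was in Hif3a, a relative of the oxygen-regulated factor HIF-1, at -3.38 without and -0.56 with tumor in WT, and -3.78 without and -3.68 with tumor in PD-1KO mice. The tumor-bearing WT array alone was high. The digestive protease genes Prss3 (1.43 and 0.18) and Prss2 (1.40 and 0.42), as well as Bhlha15, a factor of secretory cells (1.48 and 0.02, at least 2.80-fold in the WT pair) and Wdr20rt (1.64 and -0.02, at least 2.81-fold in the WT pair) were among the next. The largest negative ones were in the globins Hba-a2 and Hba-a1, which mark red cells. Hba-a2 was at -0.24 without and -2.71 with tumor in WT, and -2.62 without and -2.26 with tumor in PD-1KO mice, so that the tumor-free WT array alone was high. The 2 red cell markers that passed the filter, of 9, summed to 1.75 without and 0.333 with tumor in WT mice, and 0.358 without and 0.434 with tumor in PD-1KO mice, and Alas2 and Slc4a1 were above background on no young array. Tpsb2 (-2.02 and -0.10, at least 4.04-fold in the WT pair), Veph1 (-2.08 and 0.20), Vps37d (-1.53 and -0.24) and Cdk15 (-1.44 and -0.13) completed the 6.

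The 4 arrays of 17-month mice are other samples and gave the tumor difference afresh. Of the 433 features 2-fold higher in both young pairs, 264 were 2-fold higher in the 17-month WT pair and 265 in the 17-month PD-1KO pair. For all features the shares past that fold are 3.97% and 2.18%. In both older pairs 180 (41.6%) were 2-fold higher, against 0.942% of all features, and the 180 are 88.7% of the 203 features that were. Of the 90 lower features, 13 (14.4%) were 2-fold lower in both older pairs, against 0.519% of all, and they are 11.6% of the 112 that were. All 4 young arrays were well above background for 312 of the 433 and 28 of the 90, against 19569 of all 21561 features. The share over all features is therefore not a like baseline, least of all for the lower ones. Single older pairs had 5.18% (WT) and 2.16% (PD-1KO) of all features 2-fold lower.

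**Figure D5:**
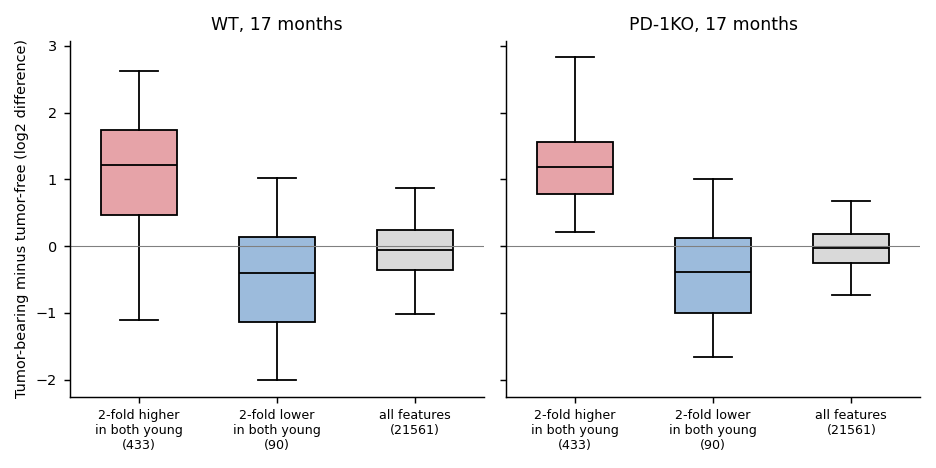
Log2 difference (tumor-bearing minus tumor-free, y axis) in the 17-month WT pair (left) and PD-1KO pair (right) for the features 2-fold higher in both young pairs, those 2-fold lower in both and all features; boxes span the quartiles with the median as a line, and whiskers the 5th to 95th percentile over features. The higher group has medians of 1.21 and 1.19 and the lower group of -0.40 and -0.39.

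The cell division lists were higher in the older mice too, with mitosis medians of 1.74 and 1.41 in the 17-month WT and PD-1KO pairs and 35 of 44 genes 2-fold higher in both. At 17 months the WT pair had the larger median for mitosis, cyclins (1.29 and 1.07) and histones (1.29 and 0.67), and the PD-1KO pair for DNA replication (0.68 and 0.72). Granzyme differences in the older pairs were 2.62 and 1.51 for Gzmb, 3.14 and 0.66 for Gzmk and 5.10 and 1.79 for Gzma. Ifitm1 had -0.20 and 3.598, so its level was higher with tumor in 3 of 4 pairs. Stmn2 (-1.63 and 4.09), Fxyd4 (-1.92 and 2.25) and Cphx1 (-0.04 and 4.25) likewise were not higher in the 17-month WT pair, though they were in the other 3. Naive T cell genes had larger negative medians in the older pairs (-0.69 and -0.49), and type I interferon-stimulated genes larger positive ones (0.91 and 0.37).

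Among lower genes, the Cd209 lectins were lower in all 4 pairs, with -2.77 and -2.56 for Cd209e and -2.85 and -2.16 for Cd209a at 17 months, and so were Ear1 (-1.48 and -1.30) and Ear2 (-1.08 and -1.14). The mast cell proteases were not. Mcpt4 had 0.49 and 0.40 and Cma1 0.74 and 0.42 in the older pairs, both above 0. Limma's age by tumor interaction, however, called 0 of 21561 features (0.0%), with 865 at an unadjusted p under 0.05 and a smallest adjusted p of 0.262, so a difference between ages was not shown for any gene. Without the tumor-bearing 17-month WT array it called 3. Genes apart in 1 young pair were set against the older pair of that genotype: 3 of 48 WT-pair genes were 2-fold higher (6.25%, against 3.97% of all features) and 19 of 113 lower (16.8%, against 5.18%), and 9 of 297 PD-1KO-pair genes were higher (3.03%, against 2.18%) and 48 of 382 lower (12.6%, against 2.16%).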

How the data were processed

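The scanner output of 8 one-colour arrays on 1 slide, scanned on 1 day, was used. Per the file headers, the processed signal is a background-subtracted, spatially detrended intensity of each spot, made by the authors with Agilent Feature Extraction (version 11.0.1.1), and the median spot signal is a raw intensity. The deposited quality flags are other values, 0 or 1, and mark spots that are non-uniform, saturated or clearly over background. A table of log2 values for 23971 probes was also deposited by the authors. Its columns share 1 distribution within 0.00157, and the steps that made it are not given in the sources used here.

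Levels are log2 of that signal minus the 75th percentile of the array. After control probes, 12 of 56605 others were left out because of flagged spots. A symbol was given to 32988 through accessions in a RefSeq table (GRCm38.p6), and 23605 kept their identifier. Chromosomes come from that table. Probes well above background on 2 or more of the 4 young arrays were kept, and the probe of highest mean stood for its gene. Where the dim array did not measure a probe, the fold is a lower bound against the lowest signal well above background on that array or the probe's own, whichever was higher. Limma 3.58.1 in R 4.3.3 was fitted across all features of the 8 arrays, with 3 residual degrees of freedom for tumor and age by tumor and 1 for genotype by tumor; p-values are 2-sided and adjusted by Benjamini and Hochberg. The steps were tested on simulated data.

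The members, the 24 program lists and the 17 marker lists were chosen with earlier results of these data known. Genes named were the 15 largest positive and 15 largest negative differences by the mean of the 2 pairs, measured on the brighter side, the 6 largest each way per genotype, list members, Pdcd1 and Cd8a; predicted genes, clone names and identifiers were counted but not named, and some genes are not reported here. Alternatives were other scalings, normexp (offset 50), the authors' table, other filters, folds and limits, mean of probes, other models, each array left out and, added after seeing the data, leaving out the outermost rows.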

Additional observations from a re-analysis of the deposited data

Results flagged for a closer look

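Some results had both young pairs on one side of 0 and both 17-month pairs on the other. The differences between ages given here are young minus 17-month, each the mean of 2 pairs, and, since no age by tumor interaction passed limma's test, they are not shown to differ. The mast cell proteases Mcpt4 (-3.03, SE 0.39, adjusted p = 0.812 for the interaction), Cma1 (-3.04, SE 0.36, adjusted p = 0.812) and Cpa3 (-2.65, SE 0.33, adjusted p = 0.812) were below 0 in both young pairs and above 0 in both older pairs. Cpa3 was not well above background on the young tumor-bearing PD-1KO array, so its size is not exact.

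Among list medians, for which the difference was not tested, macrophage and monocyte markers differed by -1.28 (young medians -0.54 and -1.14, 17-month medians 0.64 and 0.24). Exhaustion and NR4A transcription factors differed by -0.36, apoptosis and p53 targets by -0.15 and regulatory T cell markers by 0.25, the last with a sign in young mice that flips under another scaling. With 1 array per group, no array could be tested as an outlier of its group.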

How the results depend on the processing

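The count of features 2-fold higher in both young pairs moved past 1.5 times under normexp (239) and at folds of 1.5 (817) and 3 (225); under the other alternatives it was 304 to 586. The count lower in both moved most: 58 with quantile normalization, 138 unscaled, 9 with normexp, 21 in the authors' table, 281 unfiltered, 28 with all 4 young arrays well above background, and 749 and 9 at folds of 1.5 and 3. The WT-only count of 161 became 47 with normexp, 44 in the authors' table, 1337 unfiltered, 61 with all 4 arrays well above background, 883 and 35 at folds of 1.5 and 3, and 78 and 325 with limits of 0.25 and 2-fold in the other pair. The PD-1KO-only count of 679 became 312, 382 and 2116 with normexp, the authors' table and no filter, 2729 and 155 at those folds, and 354 and 1284 at those limits. The share of higher features among those 2-fold apart in both pairs was 82.8%, and 96.4% with normexp and 93.5% in the authors' table.

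Limma's 2 calls for tumor became 1 with quantile normalization, 240 unscaled, 160 with normexp, 94 in the authors' table, 0 unfiltered, 56 and 139 with all 4 or all 8 arrays well above background, 248 with an intensity trend, and 0 with age by genotype added or the 4 young arrays alone; with 1 array left out they ran from 0 to 364. The 0 calls for age by tumor ran from 0 to 3 with 1 array left out. The 0 for genotype by tumor became 38 unscaled, 1 with normexp and 1 with a trend. No named gene 2-fold apart in both pairs changed sign under quantile normalization, no scaling or normexp; of 136, 133, 131 and 103 were still 2-fold apart in both. No paired analysis was possible because, with 1 array per group, all share replicate number 1 and no replicate block can be fitted; the pairs above are tumor-bearing and tumor-free arrays of 1 genotype. Signal near background limits the lower genes most.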
